A study of Mus musculus with 36 samples.

Results

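Gene expression was compared between 67NR and 66cl4 control tumors grown in BALB/c mice, 6 of the 36 tumors in the series. They were chosen as the 3 tumors of each line whose labels name a control and the BALB/c strain. 67NR tumors came from 1e+05 cells and were taken on day 21, and 66cl4 tumors came from 1e+04 cells and were taken on day 28, so line, cell number and day cannot be told apart in any difference below. All cells carried a control shRNA from a retrovirus, had been selected with puromycin, and were placed in the fourth mammary fat pad of female BALB/cJ mice 6 to 8 weeks old. Control tumors of the same lines in NSG mice (NOD/SCID/Ifrg2r-/-, 3 of 67NR and 3 of 66cl4, with the same cell numbers and days) served as a second host. NSG mice keep myeloid cells but lack T, B and NK cells. Which of the study's control hairpins each tumor carried was not used here, each line is a transduced population and not a set of independent lines, and necrotic tissue had been cut away before RNA extraction where it was present.

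67NR and 66cl4 are sister cell lines from the same BALB/c-derived mammary tumor. 67NR is known for primary tumors that do not spread, and 66cl4 for tumors that seed the lung. A tumor sample holds the injected cells together with the macrophages, fibroblasts, vessels, lymphocytes and neighboring tissue of the host, so an RNA level from it is a sum over these cells. The values are log2 array signals, in which 1 unit is a factor of 2, and every difference is 67NR minus 66cl4. A gene with several probe sets is represented by the brightest of them, and levels are compared between tumors for a gene and never between genes. The table gives no detection calls. Gzma, Gzmd and Ncr1, genes of lymphocytes, read 2.81 to 4.99 in tumors from NSG mice, so where a group averaged under 6 no fold is given, the difference may be limited by background, and the order of the largest differences is uncertain.

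The 3 tumors of a line were more alike than tumors of different lines. Correlations between arrays were 0.9935 to 0.9956 within 67NR and 0.985 to 0.9907 within 66cl4, against 0.9537 to 0.9664 between the lines, and array medians ran from 7.1 to 7.19. RNA integrity, the 3′ minus 5′ signal of control probe sets for actin and Gapdh, in which a larger value means more degraded RNA, was 0.86, 0.79 and 0.77 in 67NR tumors and 0.72, 0.47 and 0.82 in 66cl4 tumors (difference 0.14, exact permutation test, two-sided, p = 0.3, with 0.1 the smallest p that 3 against 3 allows). The tissue label was mammary gland tumor, and without detection calls the presence of its epithelial markers could not be judged. Cdh1, the adherens junction cadherin, was at 3.96, 4.46 and 4.60 in 67NR, against 4.73, 4.88 and 4.42 in 66cl4, and Epcam, another adhesion molecule of epithelia, ranged from 4.20 to 5.51 in 67NR and from 5.0 to 5.91 in 66cl4 (adjusted p = 0.26 and 0.442). Vim, the mesenchymal intermediate filament, was at 14.26, 14.26 and 14.32 in 67NR, against 13.90, 14.17 and 13.95 in 66cl4 (difference 0.27 ± 0.12 SE, limma adjusted p = 0.14).

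Of 12394 genes, 1672 were higher in 67NR tumors and 1567 lower at a limma adjusted p under 0.05, which is 13.5% and 12.6% of the genes and 26.1% in either direction. At an unadjusted p under 0.05, 4560 genes passed. In 1667 of the 1672 increases and 1559 of the 1567 decreases, the 3 values of 67NR lay wholly above or below the 3 of 66cl4. Among all 12394 genes, called or not, the groups lay apart in this way for 5049. The difference was over 1 log2 unit for 586 of the increases and 573 of the decreases, and over 4 log2 units for 17 and 34. The count of 3239 genes fell to 2147 without replicate 2 of 67NR and was 2162 to 3618 without any other tumor. Genes lower in 67NR numbered 1023 without replicate 2 and 952 without replicate 1 of 67NR, in place of 1567. The median difference over all genes was 0.00.

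The leading genes had varied roles. Among the 15 largest increases were the EGF family ligands Ereg and Btc, the surface protein Plet1, the casein Csn3, the natriuretic peptide gene Nppb, the protease Mmp10 and the doublecortin-like kinase Dclk1. Among the 15 largest decreases were Omd, Krt8, Prrx2, Ogn and Arg1, together with 5 genes of skeletal muscle. For 11 of these 30 genes the array held other probe sets, 17 in all. Of these 16 had the same sign, but several were close to 0, such as those at 0.28 for Plet1, 0.46 for Csn3, 0.11 for Pcdh7 and 0.25 for Dclk1, so the size of a difference can depend on the probe set.

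**Figure D1:**
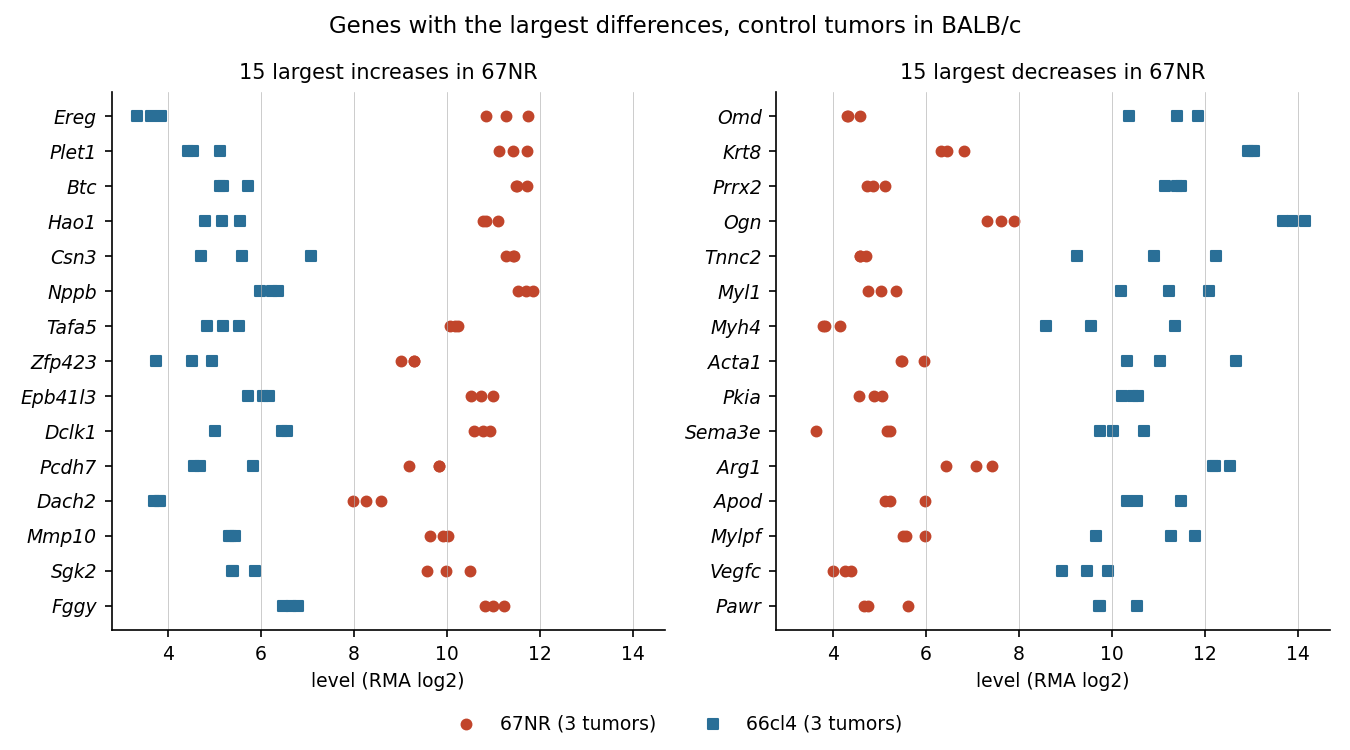
Log2 array signal (horizontal axis) of the 15 genes with the largest increase and the 15 with the largest decrease in 67NR against 66cl4 control tumors from BALB/c mice, with a point for each of the 3 tumors per line. The points of the lines do not overlap for any of these genes, as the rule for choosing them required, and the gap between the means runs up to 7.68 log2 units for Ereg and to -6.80 for Omd.

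Promoter sequence is shown for 6 of these genes, since members of the AP-1 family, which binds the letters TGANTCA, were themselves among the genes that differed (below). Each window holds 250 bases before to 50 bases after the annotated start in RefSeq (GRCm38.p6), written 5′ to 3′ on the strand of the gene, and capitals mark TGANTCA, which reads the same on both strands. The letters were in the windows shown for Mmp10, Plet1, Dclk1 and Tafa5, and not in those of Btc and Krt8. Dclk1 and Tafa5 each have another annotated start, whose window did not hold the letters and is not shown.
Mmp10 (chr9:7502092-7502391, plus strand): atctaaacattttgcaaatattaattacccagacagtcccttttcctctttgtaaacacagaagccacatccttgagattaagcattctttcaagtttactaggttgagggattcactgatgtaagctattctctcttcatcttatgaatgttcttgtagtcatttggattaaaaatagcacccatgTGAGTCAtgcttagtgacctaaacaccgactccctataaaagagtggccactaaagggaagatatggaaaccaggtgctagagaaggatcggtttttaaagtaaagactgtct
Plet1 (chr9:50494275-50494574, plus strand): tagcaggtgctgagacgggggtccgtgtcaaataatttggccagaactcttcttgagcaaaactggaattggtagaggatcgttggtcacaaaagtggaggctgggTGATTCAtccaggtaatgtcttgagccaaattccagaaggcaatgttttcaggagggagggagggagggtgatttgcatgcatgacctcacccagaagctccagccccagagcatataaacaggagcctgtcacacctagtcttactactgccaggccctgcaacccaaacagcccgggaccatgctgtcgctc
Dclk1 (chr3:55461478-55461777, plus strand): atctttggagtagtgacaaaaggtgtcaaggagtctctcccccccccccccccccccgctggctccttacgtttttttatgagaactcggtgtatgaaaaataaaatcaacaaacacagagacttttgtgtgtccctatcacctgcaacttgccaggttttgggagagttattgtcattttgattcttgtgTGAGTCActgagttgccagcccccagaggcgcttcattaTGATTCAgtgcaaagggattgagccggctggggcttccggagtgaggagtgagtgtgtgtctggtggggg
Tafa5 (chr15:87624980-87625279, plus strand): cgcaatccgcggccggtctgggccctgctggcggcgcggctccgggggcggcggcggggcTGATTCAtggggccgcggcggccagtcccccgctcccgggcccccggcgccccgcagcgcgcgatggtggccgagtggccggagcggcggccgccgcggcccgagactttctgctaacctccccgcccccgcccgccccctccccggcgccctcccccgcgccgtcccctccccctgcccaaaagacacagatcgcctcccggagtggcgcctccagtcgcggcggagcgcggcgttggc
Btc (chr5:91402945-91403244, minus strand): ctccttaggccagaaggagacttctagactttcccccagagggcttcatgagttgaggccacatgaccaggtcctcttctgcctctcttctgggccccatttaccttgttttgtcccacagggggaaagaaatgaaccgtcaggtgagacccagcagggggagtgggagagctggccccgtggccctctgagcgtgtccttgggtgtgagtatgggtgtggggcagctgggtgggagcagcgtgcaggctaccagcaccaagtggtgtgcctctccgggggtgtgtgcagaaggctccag
Krt8 (chr15:102004293-102004592, minus strand): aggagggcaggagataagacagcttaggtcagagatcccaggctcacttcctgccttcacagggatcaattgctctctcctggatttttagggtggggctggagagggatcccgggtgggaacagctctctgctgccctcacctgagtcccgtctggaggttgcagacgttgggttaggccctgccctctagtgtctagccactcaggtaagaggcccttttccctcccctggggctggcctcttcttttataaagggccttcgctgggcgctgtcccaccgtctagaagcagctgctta

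The letters TGANTCA were in 2565 of 32851 windows of the table (7.81%) and in 6.45% of the windows of measured genes. They were in 123 of 1760 windows of genes higher in 67NR (6.99%) and in 6.09% of the 1658 windows of genes lower in 67NR, both near the share of all windows. Of the 15 largest increases, 12 had windows and 4 of these 19 windows held the letters (21.1%), against none of the 13 windows of the 15 largest decreases. The printed windows hold every match among the 15 largest increases, so they overstate how common the letters were. With so few windows, this difference was not tested. A match is a description of the sequence and not a measured binding site.

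Ligands of the epidermal growth factor receptor led the increases in 67NR tumors. These ligands are made as membrane proteins, are released by proteases, and bind ErbB receptors that signal through the Ras and MAP kinase pathway. Ereg, which encodes epiregulin, was at 11.74, 10.84 and 11.27 in 67NR, against 3.63, 3.33 and 3.85 in 66cl4 (difference 7.68 ± 0.23 SE, limma adjusted p = 6.57e-07). Btc, which encodes betacellulin, was at 11.49, 11.72 and 11.51 in 67NR, against 5.12, 5.18 and 5.72 in 66cl4 (6.23 ± 0.18, adjusted p = 6.22e-07). Hbegf, heparin-binding EGF, was at 11.97, 12.09 and 12.33 in 67NR, against 8.57, 8.70 and 9.15 in 66cl4 (3.32 ± 0.18, 10.0-fold, adjusted p = 8.83e-06). All 3 ligands were thus higher in every 67NR tumor than in any 66cl4 tumor, which the rule for choosing leading genes required of Ereg and Btc. The pattern was wider than these 6 tumors for Ereg: in the BPTF knockdown (KD) tumors from BALB/c mice, which were in no test here, it ran from 8.66 to 11.33 in 67NR and from 3.38 to 4.14 in 66cl4.

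Other members of the family did not move with these ligands. Egf itself was lower in 67NR, at 4.72, 4.65 and 4.62 against 5.28, 5.18 and 5.09 in 66cl4 (-0.52 ± 0.11, adjusted p = 0.0109), and Epgn, another ligand, was at 4.34 to 4.43 in 67NR, against 4.37 to 4.74 in 66cl4 (-0.12, adjusted p = 0.57). Of the receptors, Egfr ranged from 7.15 to 7.49 in 67NR and from 7.31 to 7.39 in 66cl4 (-0.07 ± 0.13, adjusted p = 0.758), whereas Erbb3 fell by 0.84 and Erbb2 by 0.60 (adjusted p = 0.00854 and 0.0213). The call for Erbb2 was lost without any of the 67NR tumors (adjusted p = 0.0892, 0.0625 and 0.0506 without replicates 1, 2 and 3). Over the 13 measured genes of the family, 3 were higher and 3 lower in 67NR, with a median difference of -0.13. That was 46.2% called, against 26.1% of all genes.

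Genes that MAP kinase signaling is known to induce or that feed back on it were split. Of 18 measured, 6 were higher and 2 lower in 67NR (44.4% called, against 26.1% of all genes), with a median of 0.12. In a fit of all 36 tumors 3 were higher. Etv4, an ETS transcription factor, was at 8.84, 8.99 and 9.12 in 67NR, against 6.31, 6.27 and 6.65 in 66cl4 (2.57 ± 0.15, 5.95-fold, adjusted p = 1.19e-05). The AP-1 genes went in different directions. Fosl1 was higher by 1.63 ± 0.19 and Jun by 0.79 ± 0.16 (adjusted p = 0.000516 and 0.00738), and Fos was lower, at 7.79, 8.21 and 8.02 in 67NR against 9.15, 10.29 and 9.88 in 66cl4 (-1.77 ± 0.27, adjusted p = 0.00185). Spry1, a feedback inhibitor of receptor tyrosine kinase signaling, had the largest difference of the list, at 7.27, 7.09 and 7.13 in 67NR, against 11.30, 12.11 and 11.81 in 66cl4 (-4.58 ± 0.20, 23.9-fold lower, adjusted p = 3.68e-06). Phlda1, a target of the pathway, was higher by 1.17 (adjusted p = 0.0119, and 0.0545 without 67NR replicate 1).

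Several of the other 67NR genes belong to the mammary epithelium or to matrix turnover. Plet1, a surface protein of mammary luminal progenitors, was at 11.12, 11.43 and 11.72 in 67NR, against 5.12, 4.55 and 4.43 in 66cl4 (6.72 ± 0.22, adjusted p = 8.79e-07). Csn3, which encodes kappa-casein of milk, was at 11.28, 11.42 and 11.45 in 67NR, against 5.60, 4.71 and 7.08 in 66cl4 (5.59 ± 0.49, adjusted p = 0.000118). Of the 21 measured luminal and milk genes, 3 were higher and 2 lower, or 23.8% against 26.1% of all genes. Mmp10, the protease stromelysin 2, was at 9.92, 10.02 and 9.64 in 67NR, against 5.31, 5.35 and 5.45 in 66cl4 (4.49 ± 0.13, adjusted p = 6.57e-07).

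Proteases and their inhibitors did not share a direction. Timp1, an inhibitor of metalloproteases, was higher by 1.70 ± 0.13 and Plaur, the urokinase receptor, by 1.18 ± 0.16 (adjusted p = 4.91e-05 and 0.00117). Adamts5, which cleaves aggrecan, was at 5.90, 5.59 and 6.01 in 67NR, against 9.55, 10.53 and 10.18 in 66cl4 (-4.25 ± 0.24, adjusted p = 1.19e-05). Its neighbor Adamts1 fell by 2.37 and Reck, a membrane inhibitor of metalloproteases, by 1.67 (adjusted p = 0.000238 and 0.000516). In all, 6 of 27 measured proteases and inhibitors were higher and 6 lower, or 44.4% against 26.1% of all genes. Without 67NR replicate 1 the lower count was 3.

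The remaining large increases had no common role. Hao1, a peroxisomal oxidase, Nppb and Tafa5, a secreted chemokine-like protein, were higher by 5.73, 5.49 and 4.97. The transcription factors Zfp423 and Dach2 were higher by 4.78 and 4.50, the membrane skeleton gene Epb41l3 by 4.77, Dclk1 by 4.75, the protocadherin Pcdh7 by 4.58, the kinase Sgk2 by 4.48 and the carbohydrate kinase Fggy by 4.38. Their adjusted p ranged down to 5.71e-07 for Nppb and up to 6.2e-05 for Dclk1. Sox9, a transcription factor of progenitor cells, was at 8.59, 8.82 and 9.24 in 67NR, against 6.09, 6.86 and 6.51 in 66cl4 (2.40 ± 0.23, adjusted p = 0.000181).

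Krt8 and Krt18 were far lower in 67NR than in 66cl4, whereas Krt7 and Krt19, other keratins of simple epithelia, did not pass (0.023 and -0.167, adjusted p = 0.919 and 0.512). Keratins 8 and 18 pair into the filaments of simple epithelia. Krt8 was at 6.45, 6.33 and 6.82 in 67NR, against 13.02, 12.94 and 13.06 in 66cl4 (-6.47 ± 0.15, 88.9-fold lower, adjusted p = 3.35e-07), and Krt18 at 4.21, 5.07 and 4.69 in 67NR, against 8.89, 8.15 and 8.68 in 66cl4 (-3.92 ± 0.25, adjusted p = 2.32e-05). Trp63, the p63 factor of basal epithelium, Itgb4, the hemidesmosome integrin, and Spint2, an inhibitor of membrane serine proteases, fell by 2.0, 1.82 and 1.75. Of 34 measured keratin and adhesion genes, 2 were higher and 6 lower in 67NR, with a median of -0.06, so most of the list, Cdh1 and Epcam included, did not pass the test, and the 23.5% called was below the 26.1% of all genes.

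Mesenchymal regulators were also split between the lines. Of 27 measured, 6 were higher and 8 lower, or 51.9% against 26.1% of all genes, with a median of 0.01. Without 67NR replicate 1 the lower count was 5. The paired homeobox genes Prrx1 and Prrx2 differed in opposite directions. Prrx2 was at 5.13, 4.73 and 4.86 in 67NR, against 11.14, 11.50 and 11.40 in 66cl4 (-6.44 ± 0.15, adjusted p = 3.35e-07), whereas Prrx1 was at 10.91, 10.79 and 10.90 in 67NR, against 9.19, 9.37 and 9.12 in 66cl4 (1.64 ± 0.12, 3.12-fold higher, adjusted p = 4.55e-05). Twist1, a factor of mesenchymal transition, fell by 0.83 ± 0.11 (adjusted p = 0.00103). Of the Hox genes, which keep positional identity, 3 of 31 measured were lower and none higher, or 9.68% against 26.1% of all genes. They were led by Hoxa10 at 4.91, 4.16 and 4.37 in 67NR, against 8.27, 7.82 and 8.30 in 66cl4 (-3.65 ± 0.22, adjusted p = 1.45e-05) and followed by Hoxb6 (-1.54, adjusted p = 0.000456).

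Genes of the TGF beta and BMP pathways were mostly lower in 67NR where they differed, and Wnt genes gave about as many calls as all genes. These families of secreted ligands steer cell fate and matrix production, and their receptors and inhibitors are often induced with them. Of 41 measured TGF beta and BMP genes, 3 were higher and 17 lower, or 48.8% against 26.1% of all genes. Their median was -0.42, and without 67NR replicate 1 the lower count was 11. Bmp4, a ligand, was at 5.03, 5.0 and 5.23 in 67NR, against 9.83, 10.18 and 9.38 in 66cl4 (-4.71 ± 0.20, adjusted p = 3.36e-06). The inhibitors Smad6 and Grem1 fell by 1.63 and 1.36 (adjusted p = 0.000613 and 0.000865). Of 44 measured Wnt genes, 11 were lower and none higher (a share near the 26.1% of all genes called in either direction), with a median of -0.15. The receptor Fzd6 was at 5.77, 6.13 and 6.07 in 67NR, against 8.75, 8.66 and 8.67 in 66cl4 (-2.70 ± 0.13, adjusted p = 6.03e-06), and the ligand Wnt7b and the target Axin2 fell by 1.15 and 1.11.

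Several small leucine-rich proteoglycans, which bind collagen and shape its fibrils, were much lower in 67NR. Omd, osteomodulin, was at 4.33, 4.31 and 4.58 in 67NR, against 11.41, 10.37 and 11.85 in 66cl4 (-6.80 ± 0.33, adjusted p = 5.63e-06). Ogn, osteoglycin, was at 7.91, 7.32 and 7.63 in 67NR, against 13.88, 13.69 and 14.15 in 66cl4 (-6.29 ± 0.18, 78.1-fold lower, adjusted p = 6.22e-07). Aspn, asporin, was at 8.78, 8.62 and 7.86 in 67NR, against 11.71, 11.29 and 11.52 in 66cl4 (-3.09 ± 0.24, adjusted p = 6.2e-05). No tumor of either line crossed into the range of the other for these genes, which the rule for choosing leading genes required of Omd and Ogn. Of 10 measured genes of the class, 6 were lower and none higher, with a median of -1.71. The lower count was 4 without 67NR replicate 2 or 3. In NSG mice 3 were lower and 1 higher, with a median of 0.07.

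Among collagens and other matrix genes, 15 of 35 measured were lower in 67NR and 6 higher, with a median of -0.67. Thbs1, the matrix protein thrombospondin, was at 7.26, 7.34 and 7.22 in 67NR, against 9.71, 11.10 and 11.05 in 66cl4 (-3.35 ± 0.33, adjusted p = 0.00023). Col14a1, Pcolce, which helps to process procollagen, and Col6a1 fell by 2.16, 2.07 and 1.90, and Fbln1, fibulin, was higher by 2.03. The fibroblast and pericyte receptors Pdgfrb and Pdgfra fell by 2.12 and 1.72 (adjusted p = 0.00228 and 0.00995). In these genes 66cl4 replicate 2 often stood highest, for example for Bgn, biglycan, at 8.58, 8.55 and 8.19 in 67NR, against 9.76, 12.10 and 9.43 in 66cl4 (-1.99 ± 0.60, adjusted p = 0.0405). The call for Bgn was lost without any of the 67NR tumors (adjusted p 0.113, 0.1 and 0.119 without replicates 1, 2 and 3). 66cl4 replicate 2 was also the tumor with the lowest 3′ minus 5′ signal and the highest muscle signal (below), and the part of these in the matrix genes was not tested.

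**Figure D2:**
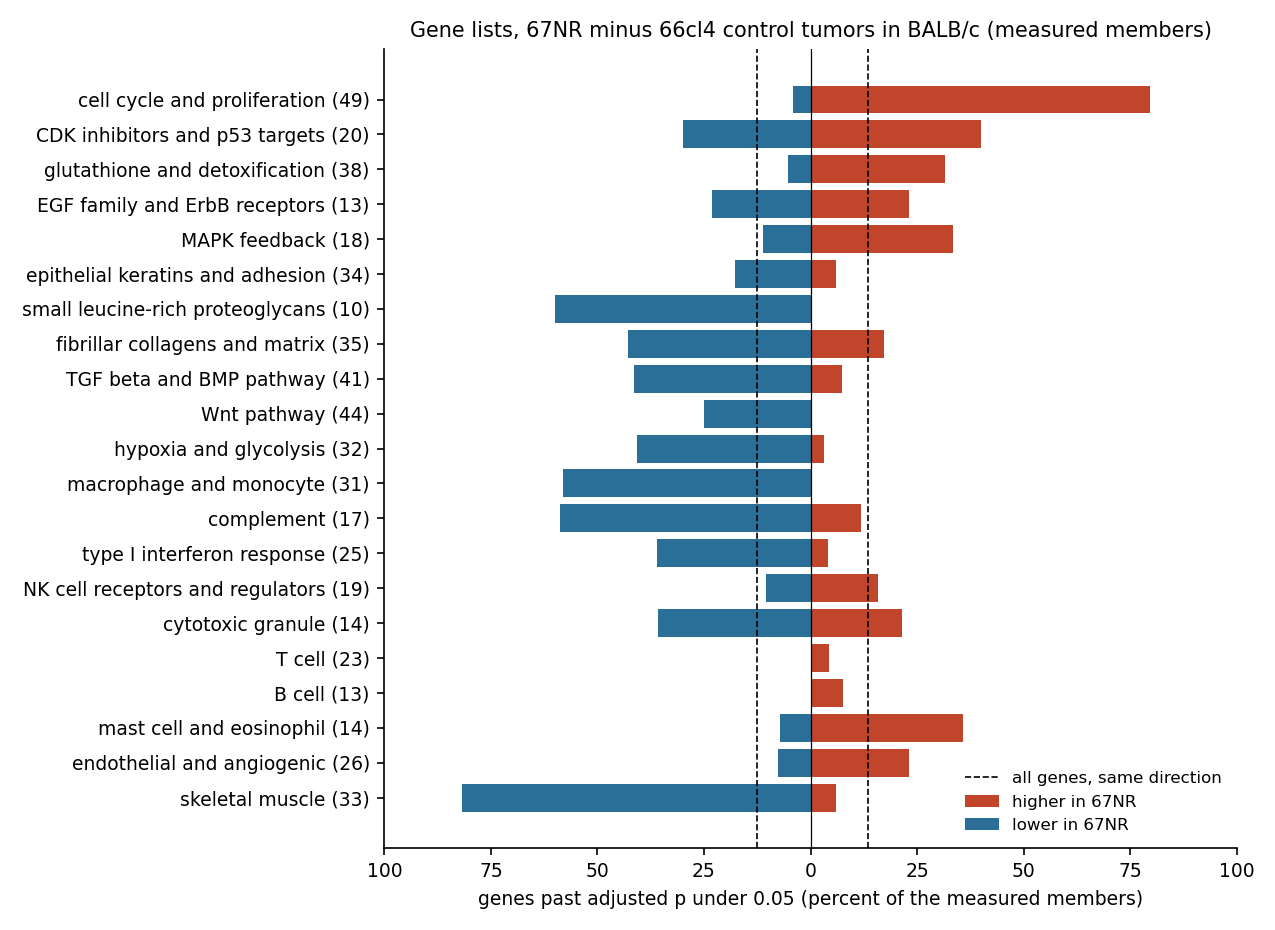
Percent of measured members higher (to the right) or lower (to the left) in 67NR against 66cl4 control tumors from BALB/c mice at a limma adjusted p under 0.05, for 21 gene lists, with dashed lines at the 13.5% and 12.6% of all genes. Proliferation genes lie far to the right (39 of 49 higher), and muscle (27 of 33 lower), macrophage (18 of 31 lower) and complement genes (10 of 17 lower) far to the left.

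Proliferation genes were higher in 67NR tumors. Of 49 measured, 39 were higher and 2 lower, where all genes gave 13.5% and 12.6%, and the median difference was 0.83. In a fit of all 36 tumors 22 were higher. The mean level of the list was 10.15, 10.11 and 10.29 in 67NR, against 9.48, 9.38 and 9.36 in 66cl4, with no overlap. Mki67, the proliferation antigen Ki-67, was at 12.40, 12.27 and 12.26 in 67NR, against 10.95, 10.66 and 10.80 in 66cl4 (1.51 ± 0.12, 2.84-fold, adjusted p = 8.19e-05). Kif2c, a mitotic kinesin, Rrm2, a subunit of ribonucleotide reductase, and Top2a, the topoisomerase of dividing cells, were higher by 1.59, 1.29 and 1.23. The 2 that were lower were the D-type cyclins Ccnd2 and Ccnd3.

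Cell cycle inhibitors and p53 targets moved both ways, 8 of 20 measured higher and 6 lower, or 70.0% against 26.1% of all genes. Without 67NR replicate 3 the higher count was 5. Cdkn1a, the CDK inhibitor p21, was at 11.91, 11.85 and 12.11 in 67NR, against 10.31, 10.04 and 10.04 in 66cl4 (1.83 ± 0.13, 3.55-fold, adjusted p = 4.55e-05), and Ccng1, another p53 target, was higher by 1.06 (adjusted p = 0.00348). Cdkn1b, the CDK inhibitor p27, was at 9.58, 9.54 and 9.48 in 67NR, against 10.52, 10.40 and 10.67 in 66cl4 (-1.0 ± 0.12, adjusted p = 0.000614). Cdkn2c, Sesn1 and Bbc3, which encode the inhibitor p18, sestrin and the death factor PUMA, fell by 1.11, 1.20 and 0.85. Pawr, a pro-apoptotic factor, was among the 15 largest decreases, at 4.68, 5.62 and 4.77 in 67NR, against 9.75, 9.73 and 10.55 in 66cl4 (-4.99 ± 0.30, adjusted p = 1.57e-05).

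Of 38 measured glutathione and detoxification genes, 12 were higher in 67NR and 2 lower, with a median of 0.16. The calls were 36.8% of the list, against 26.1% of all genes. Gstt1, a glutathione transferase, had a median of 10.89 in 67NR and of 9.17 in 66cl4, with no overlap (1.83 ± 0.13, adjusted p = 4.41e-05). Mgst3 and Srxn1, which encode a microsomal transferase and sulfiredoxin, were higher by 1.58 and 1.24. Aldh3a1, an aldehyde dehydrogenase, was far lower, at 7.31, 7.37 and 7.48 in 67NR, against 10.44, 10.77 and 11.92 in 66cl4 (-3.66 ± 0.33, 12.6-fold lower, adjusted p = 0.000136).

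Macrophage genes were lower in 67NR tumors. Of 31 measured macrophage and monocyte markers, 18 were lower and none higher (58.1% called, against 26.1% of all genes), with a median of -0.73. Their mean level was 9.77 to 9.88 in 67NR, against 10.60 to 10.72 in 66cl4. Adgre1, which encodes F4/80, was at 10.58, 10.52 and 10.29 in 67NR, against 11.37, 11.52 and 11.33 in 66cl4 (-0.94 ± 0.13, adjusted p = 0.0011), and Cd14, the endotoxin co-receptor, fell by 1.32 ± 0.13 (adjusted p = 0.000181). Itgam, the integrin CD11b, Lyve1 and Folr2, both found on resident macrophages, fell by 1.84, 3.35 and 1.21. In bulk tissue, fewer cells of a type and less RNA per cell cannot be told apart. The lower count was 14 to 19 with each tumor left out and 10 in a fit of all 36 tumors.

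Arg1, the arginase of alternatively activated macrophages, had the largest difference of the macrophage list. It was at 7.08, 7.42 and 6.43 in 67NR, against 12.22, 12.19 and 12.55 in 66cl4 (-5.34 ± 0.24, 40.6-fold lower, adjusted p = 4.57e-06). In NSG mice it was at 9.49 to 10.82 in 67NR, against 9.80 to 10.97 in 66cl4 (-0.26, adjusted p = 0.681), and the line difference itself differed between the hosts by -5.09 (adjusted p = 0.00239).

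Complement genes and part of the interferon genes were lower along with the macrophage genes. Complement marks surfaces for uptake by phagocytes, and much of it is made by macrophages and mesenchymal cells. Of 17 measured complement genes, 10 were lower and 2 higher, or 70.6% against 26.1% of all genes. C1ra and C1s1, the proteases of the first complex, fell by 2.32 and 2.60 (adjusted p = 1.75e-05 and 1.97e-05), C1qb by 0.76, and Cfp, properdin, by 1.63, while C9, a pore component, was higher by 1.20. Of 25 type I interferon response genes, 9 were lower and 1 higher (40.0% called, against 26.1% of all genes), with a median of -0.53. Oas1a, an RNA sensor, was at 9.44, 9.11 and 9.38 in 67NR, against 10.65, 10.35 and 10.47 in 66cl4 (-1.18 ± 0.14, adjusted p = 0.000577), and Irf9 and Ifih1 fell by 0.96 and 0.78. In a fit of all 36 tumors 4 of the interferon genes were lower. Socs1, an inhibitor of cytokine signaling and a member of the interferon gamma list, was higher by 1.43 ± 0.13 (adjusted p = 0.000167). These lists moved in the same tumors as the macrophage markers, and the part of macrophages in them was not tested. C1qb is counted in both the complement and the macrophage list, so those lists are not independent.

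Antigen presentation genes gave no more calls than all genes did, at 21.1% of class I and 18.2% of class II genes against 26.1%. Of 19 measured class I genes, 4 were lower and none higher, among them Psme1 and Psmb10 of the immunoproteasome (-1.08 and -1.09, adjusted p = 0.000296 and 0.000966), and without 67NR replicate 1, 67NR replicate 3 or 66cl4 replicate 2 the count was 2. The class I molecule H2-K1 was at 13.53, 13.78 and 13.49 in 67NR, against 13.15, 13.33 and 13.10 in 66cl4 (0.41 ± 0.13, adjusted p = 0.0538), and H2-D1 at 12.63 to 12.82 in 67NR, against 12.59 to 13.06 in 66cl4 (-0.04 ± 0.15, adjusted p = 0.884). Of 11 class II genes, 2 were lower, but none was lower in limma without any 67NR tumor or without 66cl4 replicate 2 or 3, and 3 were without 66cl4 replicate 1. Cd74, the class II chaperone, was at 9.52, 9.94 and 9.76 in 67NR, against 9.23, 12.14 and 10.21 in 66cl4 (-0.79 ± 0.61, adjusted p = 0.411), and H2-Eb1 was likewise highest in 66cl4 replicate 2, at 13.19, with the other 66cl4 tumors at 11.06 and 11.50 and 67NR at 10.83 to 11.69.

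Cytotoxic lymphocyte genes did not move as a group. Granzymes are the serine proteases that NK and T cells release into their targets. Gzma was at 11.38, 10.40 and 11.33 in 67NR, against 9.36, 8.01 and 8.58 in 66cl4 (2.39 ± 0.37, 5.23-fold higher, adjusted p = 0.00195). Gzmd went the other way, at 3.91, 5.66 and 7.64 in 67NR, against 9.45, 7.96 and 11.81 in 66cl4 (-4.00 ± 1.08, adjusted p = 0.0272). The groups stayed apart for Gzmd by a narrow margin, and its call was lost without 67NR replicate 1 or 2 or 66cl4 replicate 3 (adjusted p = 0.108, 0.082 and 0.0755).

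The neighbors of Gzmd followed it. Gzmg, Gzmf and Gzme fell by 4.03, 3.03 and 2.90 (adjusted p = 0.0207, 0.0364 and 0.0357), and Gzmc was at 5.29, 4.48 and 6.38 in 67NR, against 8.02, 5.91 and 9.29 in 66cl4 (-2.36 ± 0.79, adjusted p = 0.0604). These genes are near copies of each other, so a probe set of any of them may read the rest, and they are not independent. Their calls, too, were lost without 67NR replicate 1 or 2, with adjusted p from 0.054 for Gzmg to 0.148 for Gzmf. Gzmb and Prf1, the granzyme and perforin of most killer cells, did not pass (0.50 and 0.25, adjusted p = 0.544 and 0.72). In all, 3 of 14 granule genes were higher and 5 lower, or 57.1% against 26.1% of all genes. The lower count was 1 without 67NR replicate 1 or 2 and 2 without 66cl4 replicate 3.

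NK receptor and regulator genes were split between the lines. Klrc1 and Klrd1, which pair into the NKG2A receptor, were at 6.95, 7.90 and 6.83 and at 8.29, 9.30 and 8.28 in 67NR, against 5.98, 6.11 and 5.93 and 7.67, 7.27 and 7.98 in 66cl4 (1.22 ± 0.26 and 0.98 ± 0.29, adjusted p = 0.00967 and 0.0397). Ncr1, the NK receptor NKp46, was at 7.68, 7.25 and 7.59 in 67NR, against 7.22, 6.29 and 6.89 in 66cl4 (0.71 ± 0.23, adjusted p = 0.0584). Nkg7, a granule protein, Fasl, the death ligand, and Tbx21, the T-bet factor, were higher by 1.03, 1.06 and 0.54 (adjusted p = 0.0144, 0.0259 and 0.0353), while Eomes and Il18rap fell by 0.94 and 0.99. Ifng, interferon gamma, was at 5.14, 6.35 and 5.2 in 67NR, against 3.80, 4.27 and 3.93 in 66cl4 (1.56 ± 0.31, adjusted p = 0.0067). The calls for Klrd1, Tbx21, Nkg7 and Fasl were each lost without at least 1 tumor (highest adjusted p without 1 tumor 0.096, 0.127, 0.0513 and 0.0724). Over the NK list, 3 of 19 measured genes were higher and 2 lower, close to the share of all genes, and without 67NR replicate 1 or 2 only 1 was higher. In NSG mice, which lack NK cells, 4 of the 19 were lower in 67NR and none higher. Eomes (-0.93), Il18rap (-1.36) and Klrd1 (-1.70) were among these, and which cells gave the signals was not tested.

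T and B cell genes gave no more calls than all genes did. In the T cell list, 1 of 23 measured genes was higher, Tnfrsf9, the co-stimulator 4-1BB (0.93 ± 0.17, adjusted p = 0.00406), and none lower. In the B cell list, 1 of 13 was higher, Ebf1, and none was without 67NR replicate 1 or 3. In NSG mice, which lack T and B cells, Tnfrsf9 and Ebf1 were also higher in 67NR (1.67 and 0.76), and 2 B cell genes were lower. Which cells gave these signals was not tested. Of 14 measured mast cell and eosinophil genes, 5 were higher in 67NR, 1 was lower and 8 did not pass, with a median of 0.27. The calls were 42.9% of the list, against 26.1% of all genes. The proteases Mcpt4, Tpsab1 and Cpa3 were higher by 1.35, 1.58 and 1.70 and the IgE receptor gene Fcer1a by 1.91 (adjusted p = 0.00594, 0.0108, 0.0285 and 0.00985). Tpsb2 was higher by 0.89, and Hdc was the gene that was lower (-0.41). In NSG mice none was higher and 1 was lower. The higher count in BALB/c mice was 3 without 67NR replicate 2 or 3 or 66cl4 replicate 3, and 0 with the methods' t-test. It was also 0 in a fit of all 36 tumors, where limma gave Cpa3 an adjusted p of 0.136, Mcpt4 0.107, Tpsab1 0.0875 and Fcer1a 0.0821.

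**Figure D3:**
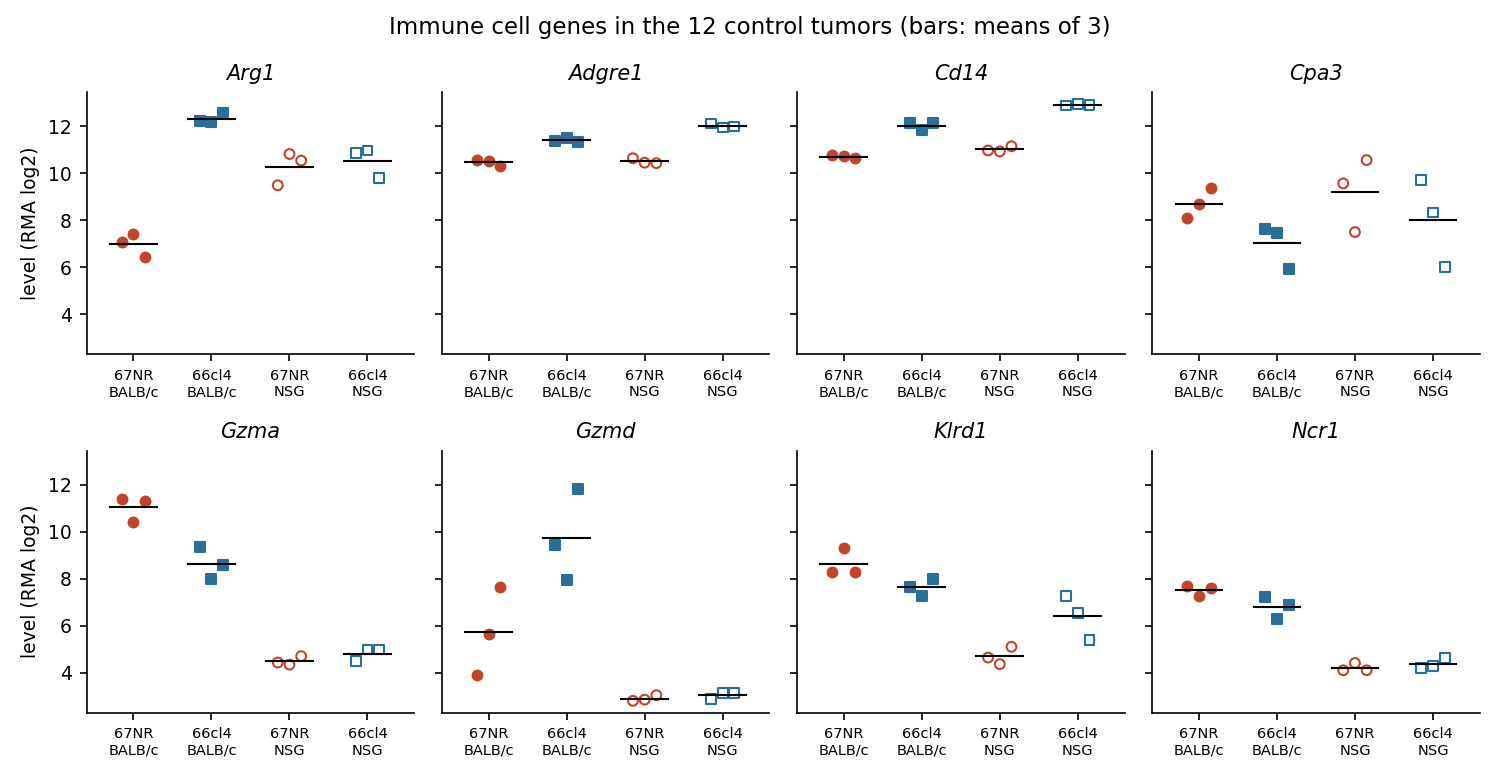
Log2 array signal (vertical axis) of 8 immune genes in the control tumors of both lines, 67NR left of 66cl4, with filled points for BALB/c and open points for NSG mice and bars at the means of 3 tumors. Arg1 is low in 67NR tumors from BALB/c mice only (6.43 to 7.42), Gzma and Gzmd differ between the lines in opposite directions in BALB/c mice, and the granzymes and Ncr1 are at 2.81 to 4.99 in NSG tumors of both lines.

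Cytokines and chemokines differed gene by gene. Kitl, the growth factor of mast cells and their progenitors, was at 13.25, 13.18 and 13.33 in 67NR, against 10.90, 10.70 and 11.07 in 66cl4 (2.36 ± 0.13, 5.15-fold, adjusted p = 1.1e-05). Il34, a ligand of the macrophage receptor CSF1R, Csf2, Il18, Il33 and Il6 were higher by 1.71, 1.26, 1.38, 1.53 and 1.94, and in all 7 of 32 measured cytokines were higher and 2 lower. Of 48 chemokines and receptors, 6 were higher and 7 lower. The calls were 28.1% of the cytokines and 27.1% of the chemokines and receptors, near the 26.1% of all genes. The neutrophil chemokines Cxcl1 and Cxcl5 differed in opposite directions, by 2.24 ± 0.19 and -1.35 ± 0.14 (adjusted p = 0.000109 and 0.000239). Ccl25 and Cx3cl1 were higher by 2.62 and 1.61, and Ccl9 and Cxcl12, a retention signal for leukocytes, fell by 2.17 and 1.76. The counts for chemokines moved to 3 higher without 67NR replicate 2 or 66cl4 replicate 3 and to 4 lower without 67NR replicate 1.

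Of 26 measured vessel genes, 6 were higher in 67NR and 2 lower, or 30.8% against 26.1% of all genes. Angpt2 and its receptor gene Tek, which loosen or hold vessels, were higher by 1.01 and 0.71, and Plvap, a protein of vessel pores, by 0.85 (adjusted p = 0.00412, 0.0058 and 0.00595). Vegfc, the growth factor of lymphatic vessels, was at 4.00, 4.40 and 4.27 in 67NR, against 8.93, 9.93 and 9.48 in 66cl4 (-5.22 ± 0.24, adjusted p = 4.88e-06). Other secreted or guidance factors among the 15 largest decreases were Sema3e (-5.48) and Apod (-5.34), and the kinase inhibitor Pkia (-5.57) was among them too.

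Skeletal muscle genes were higher in 66cl4 tumors from BALB/c mice, with the largest median of the 47 gene lists. Of 33 measured, 27 were lower in 67NR and 2 higher (87.9% called, against 26.1% of all genes), with a median of -2.07. The mean level of the list was 5.95, 5.89 and 5.81 in 67NR, against 8.24, 9.33 and 7.63 in 66cl4, against 5.64 to 6.41 in all 6 control tumors from NSG mice. Tnnc2, fast troponin C, was at 4.72, 4.59 and 4.59 in 67NR, against 10.92, 12.25 and 9.25 in 66cl4 (-6.17 ± 0.61, adjusted p = 0.000224), and Mb, myoglobin, at 5.89, 5.97 and 5.66 in 67NR, against 9.39, 10.38 and 8.87 in 66cl4. In the BPTF KD tumors from BALB/c mice, Tnnc2 ran from 4.43 to 13.27 in 67NR and from 7.01 to 12.30 in 66cl4, so muscle signal was not confined to a line. The source of the muscle signal was not tested.

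Of 32 measured hypoxia and glycolysis genes, 13 were lower in 67NR and 1 higher, with a median of -0.44. The calls were 43.8% of the list, against 26.1% of all genes. Car9, carbonic anhydrase IX, was at 5.24, 5.43 and 5.43 in 67NR, against 8.61, 9.22 and 9.31 in 66cl4 (-3.68 ± 0.19, adjusted p = 7.54e-06). Pdk1, a kinase that inhibits pyruvate dehydrogenase, was at 5.17, 4.89 and 4.91 in 67NR, against 8.31, 8.01 and 8.66 in 66cl4 (-3.34 ± 0.18, adjusted p = 8.87e-06), and Bnip3 fell by 1.44. Egln3, an oxygen-sensing hydroxylase, was the gene that was higher, by 1.96 ± 0.20 (adjusted p = 0.000259). Glycolytic enzymes of the list, such as Aldoa and Pgam1, are also abundant in muscle, whose genes were lower in the same tumors, and its part in this list was not tested. The lower count was 7 without 67NR replicate 1, 8 without 67NR replicate 2 or 66cl4 replicate 3, and 8 with RNA integrity as a covariate.

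Of the genes the study is about, Bptf, which was knocked down in the KD tumors, was at 9.73, 9.76 and 10.31 in 67NR, against 9.50, 10.61 and 9.89 in 66cl4 controls (-0.07 ± 0.28, adjusted p = 0.902). Ndst3, an enzyme of heparan sulfate synthesis, was higher by 0.70 ± 0.12 (adjusted p = 0.00382, and 0.0505 in a fit of all 36 tumors).

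Differences between the lines also followed the chromosomes. Over genes above the median level, the median difference was 0.30 on chromosome 10 (leave-one-out 0.26 to 0.33) and 0.18 on chromosome 15 (0.14 to 0.22), and -0.34 on chromosome 14 (-0.36 to -0.30). On the other chromosomes it lay between -0.12 and 0.12. Over all genes of a chromosome, dim ones included, the medians were smaller, at 0.13, 0.08 and -0.15 on chromosomes 10, 15 and 14. Of the 561 genes on chromosome 10, 26.4% were higher and 9.09% lower, and of the 438 on chromosome 14, 5.94% were higher and 24.2% lower, where all genes gave 13.5% and 12.6%. Each tumor's chromosome 10 genes deviated from their means by 0.08, 0.13 and 0.21 in 67NR and by -0.17, -0.13 and -0.17 in 66cl4, and its chromosome 14 genes by -0.19, -0.14 and -0.16 in 67NR and by 0.15, 0.10 and 0.16 in 66cl4. DNA copy number was not measured here, and its part was not tested.

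**Figure D4:**
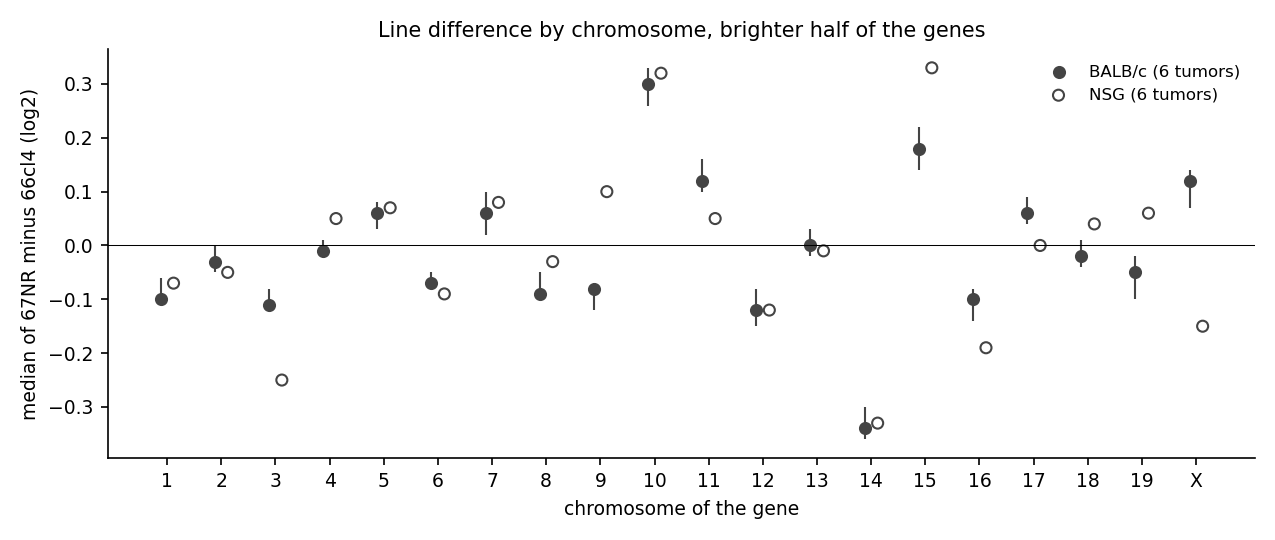
Median log2 difference, 67NR minus 66cl4 control tumors, over the genes of each chromosome whose level was above the median of all genes, for BALB/c (filled, with lines for the range when each tumor is left out) and NSG mice (open). Chromosome 10 lies at 0.30 and 0.32 and chromosome 14 at -0.34 and -0.33 in BALB/c and NSG mice, chromosome 15 lies at 0.18 and 0.33, and the others lie between -0.12 and 0.12 in BALB/c mice.

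Some of the largest differences were in neighboring genes. Runs of measured neighbors that all differed by at least 1.5 log2 units in the same direction numbered 21, of which 2 held 3 genes. These were Aspn, Omd and Ogn on chromosome 13 and Gzme, Gzmd and Gzmg on chromosome 14. Among the pairs were Ereg and Btc on chromosome 5 (7.68 and 6.23), Krt8 and Krt18 on chromosome 15 (-6.47 and -3.92), Adamts1 and Adamts5 on chromosome 16, and C1ra and C1s1 on chromosome 6.

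The same lines in NSG mice, which share no tumor with the BALB/c comparison, gave 2224 genes higher in 67NR and 2264 lower (17.9% and 18.3%, 36.2% in either direction). Of the increases in BALB/c mice, 965 were also increases in NSG mice, 57.7% of the BALB/c list and 43.4% of the NSG list. Of the decreases, 891 were shared, 56.9% and 39.4%. These overlaps rest on the NSG calls, and with RNA integrity as a covariate 99 genes passed in NSG mice in place of 4488. In the opposite direction in NSG mice were 37 of the BALB/c increases and 54 of the decreases. Of the 15 largest increases 14 passed in NSG mice, all but Csn3 (2.24, adjusted p = 0.165), and of the 15 largest decreases 9 passed, Arg1 and the 5 muscle genes being the exceptions. Across genes, the differences in the hosts correlated with r = 0.603 (Spearman 0.469, a description over 12394 genes that are not independent).

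Several leading genes of each line, though not Arg1 or the muscle genes, passed in the same direction in both hosts. In NSG mice Ereg was higher in 67NR by 6.49, Btc by 4.33 and Hbegf by 2.66 (adjusted p = 0.00011, 3.43e-05 and 0.00106). Krt8, Omd and Prrx2 fell by 6.23, 6.12 and 4.70 (adjusted p = 7.96e-06, 7.96e-06 and 5.7e-05). Proliferation genes were higher for 31 of 49 and macrophage genes lower for 19 of 31. Muscle genes were higher for 4 and lower for 2 of 33, hypoxia and glycolysis genes higher for 12 and lower for 4 of 32, and matrix genes higher for 14 and lower for 5 of 35. The difference in the RNA integrity measure was -0.16 in NSG mice, with 0.54, 0.46 and 0.47 in 67NR, against 0.62, 0.69 and 0.63 in 66cl4 (exact permutation p = 0.1), opposite in sign to BALB/c mice.

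The test of the line difference between hosts passed for 1648 genes (13.3%), in which 67NR minus 66cl4 was larger in BALB/c mice for 881 (7.11%) and smaller for 767 (6.19%). Of the 33 muscle genes 25 were smaller and none larger. Of the 23 neutrophil genes measured, 10 were larger and 1 smaller (2 higher and 5 lower in BALB/c mice, where the lower count was 2 without 67NR replicate 3, and 1 higher and 13 lower in NSG mice), and of 32 hypoxia and glycolysis genes 11 smaller and none larger. Stk26, a kinase, was at 6.52, 7.05 and 6.42 in 67NR from BALB/c mice, against 6.75, 5.93 and 5.99 in 66cl4, and at 5.08 to 5.4 in 67NR and a median of 7.84 in 66cl4 from NSG mice (interaction 2.97, adjusted p = 0.00427). Rpl39l, a gene for a ribosomal protein variant, was at 7.48, 7.82 and 6.29 in 67NR from BALB/c mice, against 7.34, 6.04 and 6.65 in 66cl4, but at 12.50 to 13.57 in 67NR from NSG mice against 6.62 to 7.16 in 66cl4 (interaction -5.42, adjusted p = 0.00239).

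How firmly the hosts can be set apart was limited. With RNA integrity as a covariate no gene passed in limma (smallest adjusted p = 0.0621, 1443 genes at an unadjusted p under 0.05, against 3921 without the covariate), and in a fit of all 36 tumors 74 passed. The count was 439 without 67NR replicate 2 and 579 without 67NR replicate 1 from BALB/c mice. Of the 16 genes named for the size of this difference, 12 passed with each tumor left out and 1 passed in the fit of 36 tumors.

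**Figure D5:**
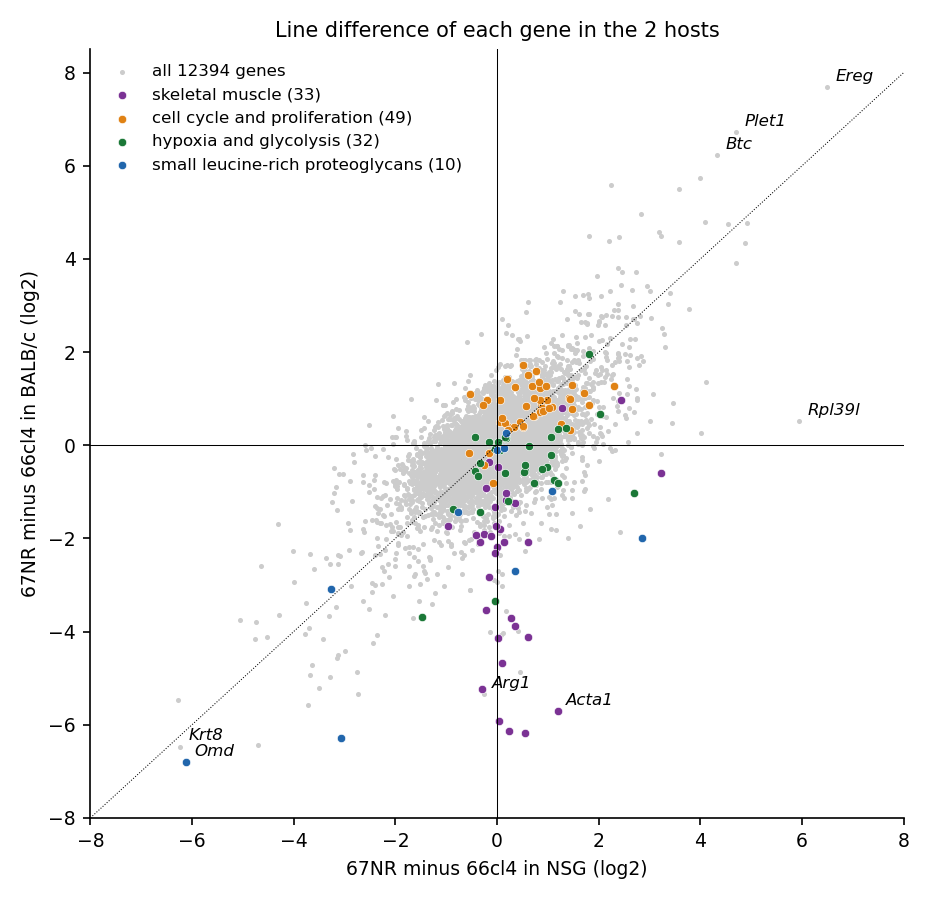
Log2 difference, 67NR minus 66cl4 control tumors, of each gene in NSG mice (horizontal axis) and BALB/c mice (vertical axis). Ereg, Btc, Krt8 and Omd lie far from 0 in both hosts, whereas Acta1, Tnnc2 and Arg1 are at -5.70, -6.17 and -5.34 in BALB/c mice and at 1.19, 0.54 and -0.26 in NSG mice, and Rpl39l is at 0.52 in BALB/c and 5.94 in NSG mice.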

How the data were processed

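Tumor RNA was measured on Affymetrix mouse arrays. Per the labels, total RNA was extracted from frozen tissue and 500 ng was labelled, and the authors deposited log2 values made by RMA (no version in the submitters' processing notes), which were used as they stood. There were 36 arrays of 22690 probe sets, with 1 gene symbol on 20393, more than 1 on 691 and no symbol on 1606. RefSeq names were looked up by Entrez ID (20364 found). The brightest probe set with 1 symbol stood for each of the 12394 genes, and 1189 of these probe sets can bind related transcripts. Arrays give no read depth, and the number of tumors limits the precision.

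67NR and 66cl4 control tumors were compared in limma 3.58.1 (R 4.3.3), 3 against 3, and p-values were adjusted after Benjamini-Hochberg across the 12394 genes, with 0.05 as the threshold. The difference between hosts was an interaction in a fit of 12 control tumors. The replicates were labelled as biological triplicates. Single measures were tested by exact permutation, and the 47 gene lists (1186 genes, 1049 measured) are described by counts and medians. Python 3.11.15, numpy 2.4.6, pandas 2.3.3 and matplotlib 3.10.9 made tables and figures, and the fits were tested on simulated data. Named genes were the 15 largest increases and 15 largest decreases with groups apart, the members of each list that ranked among its 6 smallest p, the 8 largest host differences each way and genes the study names. Egfr, Epgn, Cdh1, Epcam, Vim, Krt7, Krt19, Gzmb, Gzmc, Gzme, Gzmf, Prf1 and genes named without a value were added after their values were seen. The members, lists and rule were chosen with earlier results of these data known. Hpse, Ndst1 and Cd69 were not read here.

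Alternatives were quantile normalization, subtraction of array medians, leaving out the dimmest 25% of genes, the mean of all probe sets of a gene, all probe sets, fits of 12 or 36 tumors, array weights, the methods' t-test, a replicate block, an RNA integrity covariate, trend and robust moderation, a threshold of 0.01 and leaving out each tumor.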

Additional observations from a re-analysis of the deposited data

Results flagged for a closer look

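The line difference, 67NR minus 66cl4, differed between BALB/c and NSG mice by limma's interaction test for 881 genes in which it was larger in BALB/c mice and 767 in which it was smaller. No gene passed with RNA integrity as a covariate. All values below are the difference in BALB/c minus the difference in NSG mice, on the log2 scale.

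The largest were Stk26 (2.97), Gnai1 (2.81), Zfp991 (2.72), Gzma (2.71), Klrd1 (2.68), Mmp10 (2.67), Cd36 (2.67) and Hnmt (2.65). For Stk26, Zfp991, Cd36 and Hnmt the line difference in BALB/c mice itself did not pass. The smallest were the muscle genes Acta1 (-6.90), Tnnc2 (-6.71), Myl1 (-6.36), Myh4 (-5.95) and Mylpf (-4.93), with Mb at -3.98, and Fhl1 (-5.33), Rpl39l (-5.42) and Arg1 (-5.09).

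Of the leading 67NR genes, Btc (1.90), Nppb (1.90), Tafa5 (2.13) and Fggy (2.18) differed more between the lines in BALB/c than in NSG mice. Of the leading 66cl4 genes, Ogn (-3.21), Prrx2 (-1.74), Pkia (-1.84), Apod (-2.61) and Vegfc (-1.72) did so in the other direction, as did Itgb4 (-1.08), Bmp4 (-1.07) and Adamts5 (-1.81).

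Proliferation genes were Mki67 (0.90) and Kif2c (0.82). Secreted factors were Kitl (1.09), Cxcl1 (1.80), Cxcl5 (1.02) and Angpt2 (0.79). Macrophage and complement genes were Adgre1 (0.57), Cd14 (0.57), C9 (0.85) and C1s1 (-0.87), and lymphocyte genes Klrc1 (1.25) and Gzmg (-4.14). Matrix and fibroblast genes were all smaller in BALB/c mice: Col14a1 (-1.25), Col6a1 (-2.26), Pcolce (-1.41), Pdgfra (-1.96), Pdgfrb (-1.74), Bgn (-4.83) and Prelp (-3.06). The last were Car9 (-2.20), Pdk1 (-3.29) and Mgst3 (1.04).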

How the results depend on the processing

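The count of genes changed between 67NR and 66cl4 control tumors in BALB/c mice was 3239. It was 5335 over all probe sets, 1861 with the methods' t-test after Benjamini-Hochberg adjustment and 1825 at an adjusted p under 0.01, and ran from 2147 to 3618 with each tumor left out. In NSG mice it was 4488, against 7759 over all probe sets, 99 with the RNA integrity covariate, 2784 at 0.01, and 3380 to 4311 with each tumor left out. The host interaction gave 1648, against 3024 over all probe sets, 74 in the fit of 36 tumors, 4210 with array weights, 395 with the methods' t-test, here ordinary least squares, 0 with the RNA integrity covariate, 139 at 0.01, and 439 to 2923 with each tumor left out. More features tested, a stricter threshold or fewer tumors account for some of these by construction, and for the others the cause was not tested. The difference in RNA integrity, 0.14, ran from 0.04 to 0.21 with each tumor left out, an alternative chosen after seeing the data, as were the list and chromosome values without 1 tumor.

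Replicate numbers were shared by the groups. Deviations of same-numbered BALB/c tumors correlated at 0.2085, -0.2639 and 0.0716, and those of unlike-numbered tumors at -0.4356 to 0.3595. With 3 tumors per group these values cannot decide whether tumors with the same number were handled together. With a replicate block the counts were 2953 in BALB/c mice, 3952 in NSG mice and 805 for the host interaction.

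Of 160 named genes, 119 kept their call in BALB/c mice in every alternative and none changed direction. Of 2711 values, 91 were no longer past the threshold and 24 newly past it. The methods' t-test changed the call of 30 genes, the fit of 36 tumors 15, and no other alternative over 10.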

Other observations

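Respiratory chain genes and heparan sulfate enzymes did not share a direction. Of 41 measured subunits of the respiratory chain, 7 were higher in 67NR and 5 lower, with a median of 0.09, and of 29 heparan sulfate enzymes 5 were higher and 7 lower, with a median of -0.10. With each tumor left out these counts ran from 2 to 9 higher and 1 to 4 lower for the respiratory chain, and from 2 to 4 higher and 4 to 7 lower for the heparan sulfate enzymes. With all 6 tumors the calls in either direction were 29.3% of the respiratory chain, near the 26.1% of all genes, and 41.4% of the heparan sulfate enzymes, above it. Of 25 imprinted genes, 4 were higher (Mest, Grb10, Kcnq1 and Igf2r) and 3 lower (Peg3, Plagl1 and Cdkn1c), or 28.0% against 26.1% of all genes, and the lower count was 1 without any 67NR tumor or 66cl4 replicate 3. Of 21 Notch genes 3 were higher, among them the ligands Dll1 and Dll4, and 2 lower, or 23.8% against 26.1% of all genes. Without 66cl4 replicate 1 the lower count was 4.

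Rpl39l differed within 67NR as well. It was at 6.29 to 7.82 in the 67NR control tumors from BALB/c mice and at 12.50 to 13.57 in those from NSG mice, and the BPTF KD tumors of 67NR from BALB/c mice spanned 6.07 to 14.17. In 66cl4 it stayed between 6.04 and 8.13 in every BALB/c tumor, KD included.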
